A study of Arabidopsis thaliana with 8 samples.

Results

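A set of 8 genes, taken as rapid responders to elicitors, touch and wounding, was followed across 8 single-colour Affymetrix arrays of Arabidopsis thaliana. They were STZ, WRKY53, PUB23, AT1G22810, AT3G02840, AT5G56980, AT3G55840 and AT1G76600. These are 8 of 13356 genes with a probe set (the group of oligonucleotides that reads 1 transcript) that the array's annotation gives to a single gene, and each has 1 probe set. The arrays form 4 groups of 2, from 14-day-old seedlings of wild type or of the arr1,10,12 mutant, given 1 h in liquid medium containing either the solvent DMSO alone or benzyladenine (BA), a cytokinin, at 10 µM. The mutant lacks ARR1, ARR10 and ARR12, type-B response regulators that carry the cytokinin signal to genes, per its name and the design text, which calls the plants knockouts; the labels name no alleles. Every group, the DMSO controls included, was moved from filter paper on agar into liquid, and the roots were cut off and discarded before freezing. The tissue label nevertheless reads seedling, and the labels do not state whether group mates were separate cultures.

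The genes were chosen from earlier results of these same arrays. The BA difference in the mutant or the genotype difference under DMSO had brought up AT5G56980, AT1G22810, AT3G02840, AT3G55840 and AT1G76600, and STZ and WRKY53 came from a list of touch and stress genes. The values that led to PUB23 are not known. Comparisons that use the mutant DMSO arrays are therefore given as descriptions. Those between the other 3 groups are given with a test, except for AT1G76600, whose part in the counts is a description. They are other contrasts, but they share the mutant BA and wild-type arrays with the ones that led to the genes, so their p-values are not independent of the choice.

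In plants, cell-surface receptor kinases that bind an elicitor (a fragment of a microbe, such as flagellin or chitin) set off a calcium influx and a cascade of mitogen-activated protein kinases. Transcripts of transcription factors, ubiquitin ligases and calcium sensors then rise within minutes and soon fall again. Bending, wounding or moving a plant raises many of the same transcripts.

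Values are the authors' ratios, in which most probe sets, all 8 studied here included, were divided by the probe set's median across arrays. A value of 1 is thus the middle of a gene's own range, and levels cannot be compared between genes or checked for presence. One array, mutant DMSO replicate 1, differed from the rest in its controls. The 5′ to 3′ ratio of relative values had a median of 0.353 there over 6 pairs of control probe sets, against 0.993 to 1.11 elsewhere. Its large-subunit ribosomal RNA control read 197, against 0.666 to 3.48. This array also carries a file-name prefix of its own, whereas mutant DMSO replicate 2 shares one with both BA-treated mutant arrays, and the 4 wild-type arrays share another. Results are given with all 8 arrays and with the 7 that leave this array out. In the 7-array fit, mutant DMSO is 1 array that is assumed to vary like the other groups. In RNA of whole shoots, fewer cells of a type and less RNA per cell cannot be told apart.

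Of the transcription factors, STZ encodes a C2H2 zinc finger repressor of salt, cold and drought responses. Its relative values were 0.656 and 1.062 in wild type with DMSO, 0.552 and 1.151 in wild type with BA, 0.304 and 1.97 in the mutant with DMSO, and 0.96 and 1.04 in the mutant with BA (replicate 1, then replicate 2). The highest and the lowest of the 8 values thus came from the same group, mutant DMSO. WRKY53, a WRKY factor of leaf senescence and defence, read 0.684 and 0.544 in wild type with DMSO, 0.877 and 1.195 with BA, 1.123 and 1.716 in the mutant with DMSO, and 0.639 and 1.482 with BA. Both wild-type DMSO arrays lay below both wild-type BA arrays and below both mutant DMSO arrays for this gene. AT1G22810, an AP2/ERF factor, read 1.052 and 0.948 in wild type with DMSO, 0.634 and 0.778 with BA, 0.876 and 7.199 in the mutant with DMSO, and 1.32 and 1.435 with BA. Mutant DMSO replicate 2 was 5.02-fold above the next highest array, while the other 7 arrays lay between 0.634 and 1.435.

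PUB23 encodes a U-box ubiquitin ligase that, with PUB22 and PUB24, dampens responses to elicitors. It read 0.795 and 1.138 in wild type with DMSO, 0.703 and 0.947 with BA, 0.598 and 2.611 in the mutant with DMSO, and 1.213 and 1.053 with BA. As for STZ, mutant DMSO held both its highest and its lowest value.

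The remaining 4 genes carry only a locus name in the annotation used here. AT3G02840 read 1.022 and 0.951 in wild type with DMSO, 0.854 and 1.009 with BA, 1.237 and 4.15 in the mutant with DMSO, and 0.812 and 0.991 with BA. AT5G56980 read 1.378 and 1.112, 0.974 and 1.001, 0.372 and 4.99, and 0.999 and 0.776 in the same order of groups. Over the 6 arrays outside mutant DMSO, AT3G02840 was nearly level (0.812 to 1.022) and AT5G56980 ranged more widely (0.776 to 1.378). Both genes peaked on mutant DMSO replicate 2. AT3G55840 read 0.659 and 0.85, 0.611 and 1.713, 1.096 and 6.07, and 0.957 and 1.043. It peaked on the same array and had its next highest value on wild-type BA replicate 2. AT1G76600 read 0.909 and 1.06, 1.227 and 1.196, 1.142 and 0.94, and 0.368 and 0.488. It did not share the peak: its 2 lowest values were the BA-treated mutant arrays, and its mutant DMSO values lay within the range of wild type.

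**Figure D1:**
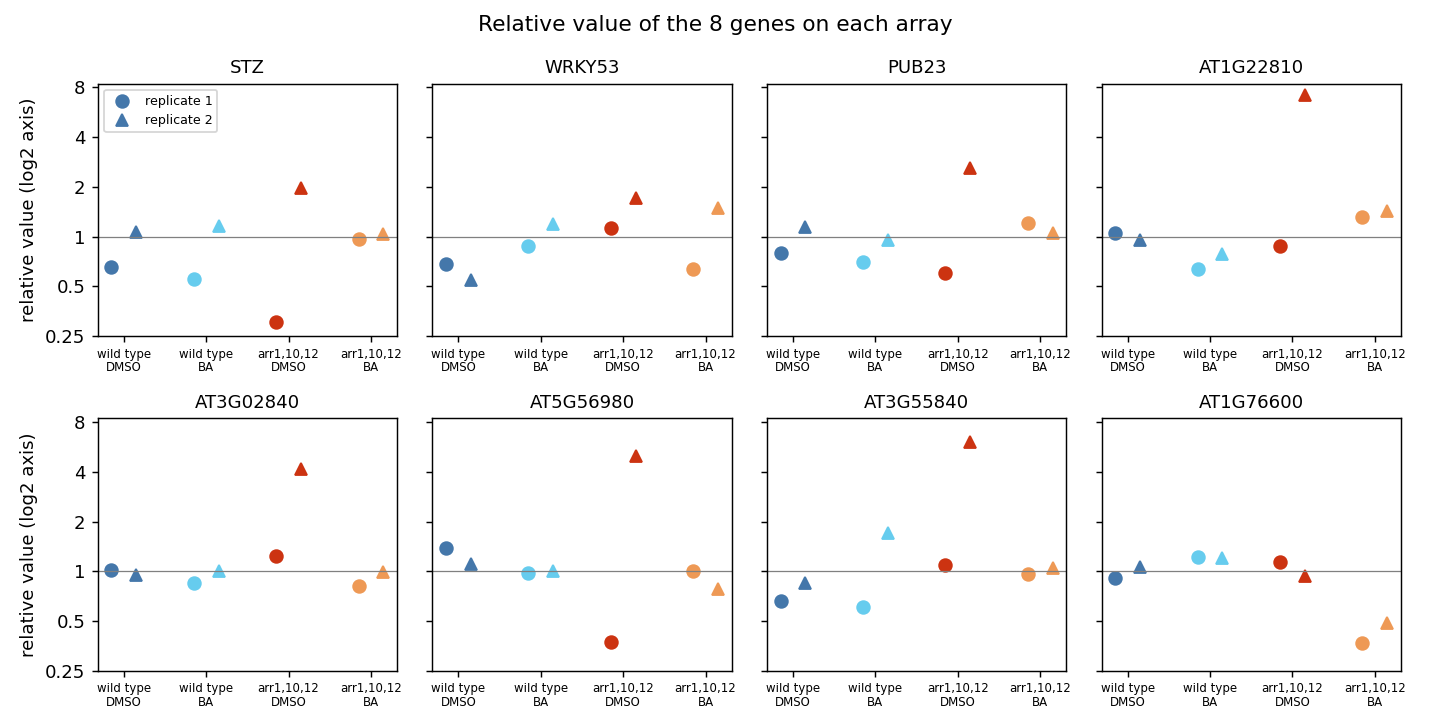
Relative value of each gene on each array (log2 axis; circles, replicate 1; triangles, replicate 2; the line marks 1, a gene's own median). On mutant DMSO replicate 2 every gene but AT1G76600 had its highest value, from 1.716 for WRKY53 to 7.199 for AT1G22810.

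Whether the genes moved together between group mates was read from the log2 difference of replicate 2 minus replicate 1 in each group. Replicates have no order, so only the size and the shared sign are informative. In mutant DMSO, 7 of 8 genes were higher on replicate 2, by 0.61 (WRKY53) to 3.75 (AT5G56980), and AT1G76600 differed by -0.28. The median over the 8 was 2.30, against -0.05 over all 22746 probe sets, of which 45.6% were higher on replicate 2. Of the 8, 6 differed more than 2-fold, where 17.9% of all probe sets did. These are the arrays that brought up the genes, so nothing is read from those shares.

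Differences between group mates in the other 3 groups are not known to have entered the choice, although those arrays were part of the same fits. Between the wild-type BA arrays 7 of 8 genes were higher on replicate 2 (50.0% of all probe sets), with a median of 0.36 against 0.00. AT3G55840 differed by 1.49 and STZ by 1.06, the 2 of 8 past 2-fold, where 0.972% of all probe sets were. AT5G56980 and AT1G76600 differed there by 0.04 and -0.04. Between the BA-treated mutant arrays 6 of 8 were higher on replicate 2 (56.9% of all), with a median of 0.12 against 0.05. WRKY53 alone passed 2-fold, at 1.21 (3.34% of all probe sets), and the next largest size was 0.41 for AT1G76600. Between the wild-type DMSO arrays the 8 split 4 to 4 (48.6% of all higher on replicate 2), with a median of 0.06 against -0.01, and none passed 2-fold (0.747% of all). STZ at 0.69 and PUB23 at 0.52 were the largest there. Outside mutant DMSO, the genes thus shared a sign in 7 of 8 cases in wild-type BA, 6 in mutant BA and 4 in wild-type DMSO. Different genes led in each group. STZ and AT3G55840 were higher on replicate 2 in all 4 groups, but nothing is read from this, since replicate numbers do not pair the samples.

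**Figure D2:**
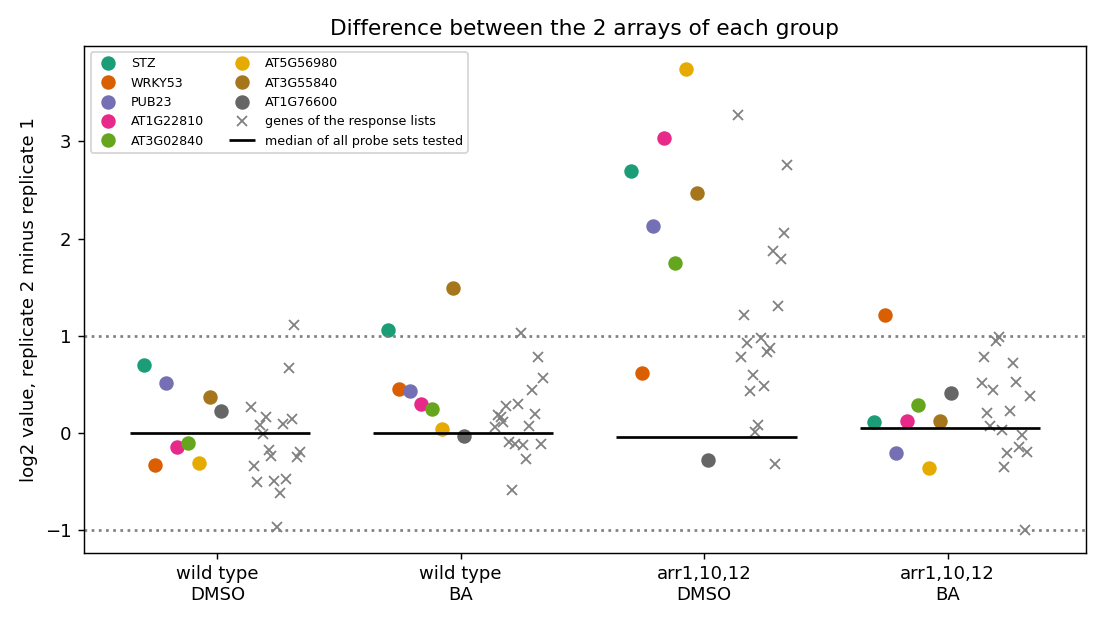
Log2 value of replicate 2 minus replicate 1 in each group (coloured points, the 8 genes; grey crosses, 18 genes of related response lists; black bars, the median of all probe sets tested; dotted lines, 2-fold). The points stand well above the bar in mutant DMSO, with AT1G76600 at -0.28, and lie mostly within 2-fold elsewhere.

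Most of these genes peaked on 1 array, one of those that had led to them, so the counts that follow are a description. Mutant DMSO replicate 2 was the highest of the 8 arrays for 7 of 8 genes, where 13.3% of all probe sets were highest on it. It exceeded every other array more than 2-fold for 5 of 8 (AT1G22810, AT5G56980, AT3G55840, AT3G02840 and PUB23), where 0.479% of all probe sets did so, 109 in number and 52 of them named genes. For STZ and WRKY53 it was 1.71-fold and 1.16-fold above the next array. Mutant DMSO replicate 1, the array with the low 5′ signal, held the lowest value for 3 of 8 (STZ, PUB23 and AT5G56980), where 19.7% of all probe sets were lowest on it. For STZ, both arrays of this group lay outside the range of the other 6, which was 0.552 to 1.151. Replicate 2 also stood above the other 6 arrays for the 7 genes. Across the 8 arrays, each gene's correlation with the mean of the other 7 was 0.52 (WRKY53) to 0.91 (AT3G55840), and -0.07 for AT1G76600. Without mutant DMSO replicate 2, the coefficients over the other 7 arrays were 0.60 for STZ, 0.44 for PUB23 and 0.36 for AT3G55840. They were 0.02 or less for the remaining 5, down to -0.49 for AT1G76600. Unlike the 7-array fit, these 7 arrays include mutant DMSO replicate 1, on which STZ, PUB23 and AT5G56980 were lowest. The coefficient of AT5G56980 was 0.02. The coefficients are descriptions of arrays that share groups and file-name prefixes, and no p-value is given.

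Related genes were taken from 8 lists of elicitor, touch and wound response genes, in which 18 of 113 genes have a named probe set. The lists were chosen with earlier results of these data known, so their counts are a description. Of the 18, 17 were higher on mutant DMSO replicate 2 than on replicate 1 (45.6% of all probe sets), with a median log2 difference of 0.90. On replicate 2, 12 had their highest value of all 8 arrays (13.3% of all). CML37, AT1G76640 and AT3G01830 were already known from these arrays. Without them 14 of 15 were higher on replicate 2, with a median of 0.83. In wild type with DMSO 7 of 18 were higher on replicate 2 (48.6% of all), with BA 12 (50.0%), and in the mutant with BA 12 (56.9%). Their medians were -0.19, 0.14 and 0.22. Tissue markers also differed between the 2 mutant DMSO arrays. RCA, the 1 named of 8 shoot markers, read 0.538 on replicate 1 and 1.155, its highest value, on replicate 2, and the 3 named of 8 root markers, PYK10, EXPA7 and EXPA18, were lower on replicate 2 (log2 differences of -0.64, -0.89 and -0.61). Their part in the difference between these arrays was not tested.

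By family, both named WRKY factors peaked on mutant DMSO replicate 2. WRKY22, a factor of the flagellin response, read 0.286 on replicate 1 and 2.757 on replicate 2, and WRKY6 read 0.742 and 1.27. Among the receptors and kinases, EFR, the receptor for bacterial elongation factor Tu, read 0.83 and 1.479, and the cytoplasmic kinase BIK1 read 0.89 and 1.633. Of the ubiquitin ligases, PUB22 read 1.307 and 1.98, and PUB24 read 1.778 and 1.79. These partners of PUB23 were high on both mutant DMSO arrays, while PUB23 was high on 1 of them. AT5G37490, PUB25 and PUB26 were higher on replicate 2 by 0.08 to 0.97 on the log2 scale. Of the calcium sensors, CML37 read 1.199 and 2.962, CML38 read 0.901 and 3.123, AT1G76640 (CML39) read 0.867 and 3.602, and AT3G01830 read 0.983 and 6.642. CML23 went the other way, at 0.92 and 0.736. In the RefSeq gene order 3 genes separate AT1G76600 from AT1G76640, so close neighbours differed in whether they peaked on this array. The wound and jasmonate list had no named gene among 8, and AT2G28200, AT1G19210, ORA47 (an AP2/ERF factor of jasmonate synthesis) and AT1G21010 complete the 18.

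The genes most like the 8 were ranked by Pearson's r of log2 values over the 8 arrays with the mean of the 8 members, as a description. The 10 closest named genes were AT2G32190, KEU, AT2G38250, AT4G29420, AT3G58600, AT5G01380, AT3G01830, AT4G08170, AT2G34930 and AT1G04380, with r of 0.943 to 0.973. Some had large peaks and others hardly moved. AT2G32190 read 6.382 on mutant DMSO replicate 2 and 0.738 to 1.223 elsewhere, and AT2G34930 read 6.072 there and 0.355 on replicate 1. KEU, a Sec1-type protein of vesicle fusion in cell division, ranged from 0.943 to 1.227. Without mutant DMSO replicate 2, and with replicate 1 kept, r over 7 arrays ranged from 0.04 (AT4G08170) to 0.87 (AT2G38250). AT2G38250 had its second highest value, 1.317, on wild-type BA replicate 2. By deviations from the group means (4 independent values), AT5G47070, AT1G17860, AT1G04380, AT5G17350, AT3G02280, AT1G69580, AR781, AT1G07020, HMT-1 and AT2G27720 came closest, with r of 0.996 to 1.0. AT1G04380 was the gene on both rankings.

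The effect of BA in wild type compares 2 groups without mutant arrays, although the spread is estimated over all groups. None of the 8 genes passed limma with Benjamini-Hochberg adjustment over all probe sets, with 8 arrays (0.0220% of all probe sets passed) or with 7 (2.27%). WRKY53 had the largest difference, 1.68-fold higher with BA (log2 0.75 ± 0.38, SE, 7-array fit), and its groups did not overlap (adjusted p = 0.433 with 7 arrays and 0.858 with 8). AT1G22810 was 1.42-fold lower with BA, also without overlap (log2 -0.51 ± 0.16, adjusted p = 0.183 with 7 arrays), and was the 1 gene of 8 with an unadjusted p under 0.05 in that fit (15.5% of all probe sets), against 0 of 8 with all arrays (7.24%). The other 6 differed by -0.33 to 0.45, and of these AT5G56980 and AT1G76600 also had groups that did not overlap. The share of all probe sets without overlap was not computed, so nothing is read from it. With 2 arrays per group, these values do not tell a change of these sizes from no change. Of the 18 list genes, ORA47 (1.31 ± 0.13) and AT1G76640 (0.98 ± 0.16) had the largest rises with 7 arrays, and neither passed with 8. AT1G76640 was already known from these arrays. The 7-array calls of this comparison, over all probe sets, did not hold when either wild-type DMSO array was left out.

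Under BA, the mutant was compared with wild type. AT1G76600 was 2.86-fold lower in the mutant, at 0.368 and 0.488 against 1.227 and 1.196 (log2 -1.52 ± 0.18, 7-array fit). The same low mutant BA arrays had led to this gene, so its difference is a description. No p-value is given, and its part in the counts below supports nothing. As single further arrays were left out, its difference ranged from -1.72 to -1.31. AT1G22810 was 1.96-fold higher in the mutant, at 1.32 and 1.435 against 0.634 and 0.778 (log2 0.97 ± 0.16, limma adjusted p = 0.0166 with 7 arrays and 0.633 with 8). It did not pass without either wild-type BA array (0.0947 and 0.0634). In all, 2 of 8 passed with 7 arrays, AT1G76600 counted, where 7.68% of all probe sets did, and 0 of 8 with 8 arrays, where 0.141% did. With 8 arrays the 1 of the 8 with an unadjusted p under 0.05 was AT1G76600, and 13.2% of all probe sets had one. The other 6 differed by -0.17 to 0.47, with adjusted p of 0.253 to 0.967 (7 arrays). PUB23 had the largest of these (0.47 ± 0.23). Its groups did not overlap, but the share of all probe sets without overlap was not computed. Of the 18 list genes, AT2G28200 was higher (1.72 ± 0.20) and ORA47 (-1.27 ± 0.13) and AT1G21010 (-1.06 ± 0.23) were lower in the mutant with 7 arrays (limma adjusted p = 0.00632, 0.00460 and 0.0407), and none passed with 8. AT1G21010 resembled AT1G76600 in its order of groups under BA, at 1.557 and 1.628 in wild type and 0.636 and 0.915 in the mutant. Genotype and file-name prefix cannot be told apart here. The 3 named root markers, PYK10, EXPA7 and EXPA18, were also lower on all 4 mutant arrays (0.33 to 0.928) than on all 4 wild-type arrays (1.072 to 1.912), and their part in these differences was not tested.

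**Figure D3:**
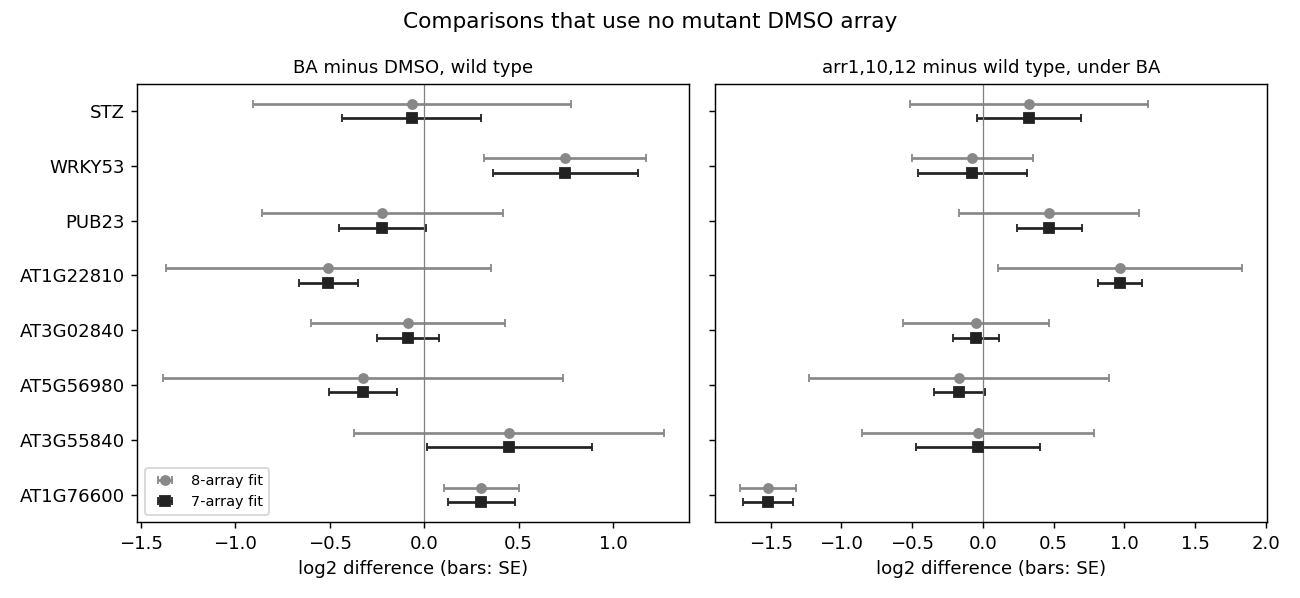
Log2 difference for BA against DMSO in wild type (left) and for mutant against wild type under BA (right), with bars for the SE in the 8-array (grey) and the 7-array fit (black). AT1G76600 lies at -1.52 and AT1G22810 at 0.97 on the right, and the other 6 genes have differences between -0.17 and 0.47 there.

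In the mutant, the BA difference of these genes depended on which DMSO array stood for the control, and it is given as a description. Against DMSO replicate 2 all 8 genes were lower with BA, from 1.76-fold (WRKY53) to 6.08-fold (AT3G55840). Against replicate 1, STZ (1.72), AT5G56980 (1.24), PUB23 (0.92) and AT1G22810 (0.65) were instead higher with BA, so that 4 of 8 changed sign. AT1G76600 was lower against both, by -1.43 and -1.15, and so were AT3G02840 (-0.46 and -2.21), WRKY53 (-0.21 and -0.82) and AT3G55840 (-0.134 and -2.603). With both arrays, 0 of 8 passed limma (0% of all probe sets), 2 of 8 had an unadjusted p under 0.05 (5.34% of all), and the median difference of the 8 was -0.75. With replicate 2 alone 3 of 8 passed, AT5G56980, AT3G02840 and AT1G22810, where 0.0352% of all probe sets did. With replicate 1 alone 24.1% of all probe sets passed, and 3 of 8 genes did: AT1G76600 as lower, and STZ and AT5G56980 as higher. AT5G56980 was the only gene of the 8 called either way, in opposite directions (-2.50 and 1.24). None of the 3 calls with replicate 2 alone held without any 1 of the 4 wild-type arrays, whose spread enters the fit, and AT5G56980 was the 1 that held without mutant BA replicate 1.

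**Figure D4:**
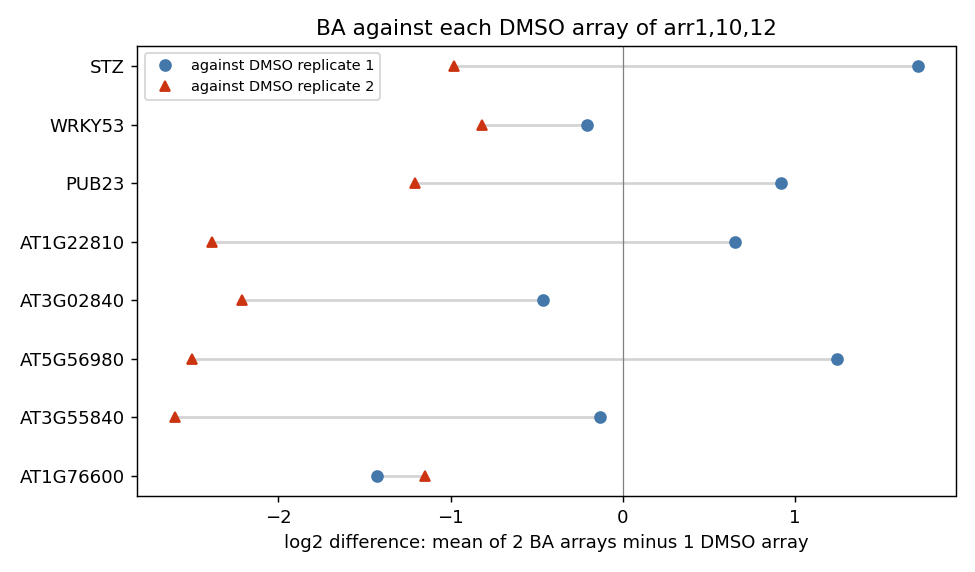
Log2 difference of the mean of both BA-treated mutant arrays minus each single mutant DMSO array (circles, replicate 1; triangles, replicate 2; a line joins the 2 values of a gene). STZ, PUB23, AT1G22810 and AT5G56980 cross 0 between the arrays, and AT1G76600 stays at -1.43 and -1.15.

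The same dependence entered the other comparisons with mutant DMSO. Under DMSO, the mutant minus wild type was positive for 7 of 8 with all arrays, with a median of 0.79 against 0.10 over all probe sets, and 0 of 8 passed (0.00879% of all did). An unadjusted p under 0.05 was found for 1 of 8 and for 13.5% of all. With 7 arrays 5 of 8 passed as higher (4.22% of all passed): AT3G55840 (8.11-fold), AT1G22810 (7.21-fold), AT3G02840 (4.21-fold), AT5G56980 (4.03-fold) and PUB23 (2.75-fold). This count was 1 without wild-type DMSO replicate 1 and 0 without replicate 2. When replicate 1 stood for mutant DMSO instead, 23.2% of all probe sets passed, and of the 8 genes AT5G56980 did, as lower (-1.73). WRKY53 was higher against both mutant DMSO arrays (0.88 and 1.49), as were AT3G55840 (0.55 and 3.02) and AT3G02840 (0.33 and 2.07). Of the list genes, AT3G01830 (log2 3.19), AT1G76640 (2.46), CML38 (2.25), CML37 (2.22) and WRKY22 (1.32) had the largest rises with 7 arrays. AT3G01830, AT1G76640 and CML37 were already known from these arrays, so their values support nothing. With all 8 arrays WRKY22 differed by -0.31. In the difference between genotypes in the BA effect, 0 of 8 passed with 8 arrays (0% of all probe sets, with an unadjusted p under 0.05 for 1 of 8 and 8.66% of all) and 3 of 8 with 7, AT1G22810, AT3G02840 and AT5G56980, all negative (0.453% of all). These comparisons share the mutant DMSO arrays, and their values are not independent of one another.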

How the data were processed

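RNA was measured on 8 single-colour arrays, 2 in each of 4 groups taken from the sample titles. The authors deposited a linear ratio per probe set and array. From the values, the row median lies within 0.005 of 1 for 70.1% of the 22746 probe sets that are not controls, all 8 studied here included. No source used here gives the summarising program, background correction or scaling, so signal over background is unknown, and the number of arrays limits the precision. Names came from the platform's annotation, updated through the RefSeq table of TAIR10.1. No coordinates or sequences are given, since the files name no build and no sequence tables were used here.

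Log2 ratios of the 22746 probe sets that are not controls were fitted in limma 3.58.1 (R 4.3.3), with 1 mean per group, empirical Bayes moderation and Benjamini-Hochberg adjustment over all of them. A gene passed at an adjusted p under 0.05. The 8-array fit has 4 residual degrees of freedom and the fit without mutant DMSO replicate 1 has 3. P-values reflect only how much these samples differ, and that spread may be technical. The fits were tested on simulated data. The 8 genes and all lists were chosen with earlier results of these data known. The text names all 8 genes, up to 3 genes per list with the lowest p in a comparison, the named calcium sensors, and the 10 genes most like the members by each measure. Other list genes are named to complete a count and were chosen after their values were seen. A gene with several probe sets is represented by the one with the largest range. Alternatives were median centring, quantile normalization, an offset of 1 before the log, array weights, a filter on dim probe sets, a replicate block, and each array left out.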

Additional observations from a re-analysis of the deposited data

Results flagged for a closer look

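AT1G76600 was singled out because its BA difference had opposite signs in the 2 genotypes. With 8 arrays it was 0.30 ± 0.20 in wild type and -1.29 ± 0.20 in the mutant (log2, SE). Neither passed limma. Both wild-type BA arrays lay above both wild-type DMSO arrays (1.227 and 1.196 against 0.909 and 1.06), and both mutant BA arrays lay below both mutant DMSO arrays (0.368 and 0.488 against 1.142 and 0.94). The BA effect in the mutant minus that in wild type was -1.59 ± 0.28 (log2, SE, 8 arrays). It did not pass limma over all probe sets with 8 arrays. This comparison contains the low mutant BA arrays that led to the gene, so its value is a description.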

How the results depend on the processing

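BA in wild type gave 0 of 8 genes in every setting tried. With 8 arrays, the count under BA between genotypes was 1 (AT1G76600) with quantile normalization or array weights. Leaving out each array gave 0 to 3 for BA in the mutant and for the difference in BA effect, 0 to 5 for genotype under DMSO and 0 to 2 for genotype under BA. With 7 arrays these counts of 3, 3, 5 and 2 ranged over 0 to 4, 0 to 5, 0 to 6 and 0 to 2 as a further array was left out. Quantile normalization gave 0, 0 and 3 for the first 3 of them. The cause was not tested.

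The replicate numbers do not pair the samples: the correlations of pair differences between groups were -0.174 to 0.124. With the replicate block, 8 arrays gave 0 of 8 in all 5 comparisons. The block in the 7-array fit was added after the data had been seen. It removed the calls among the 8 genes for BA in the mutant and for the difference in BA effect. Calls for genotype under DMSO and under BA remained. With 8 arrays, the block called 0 probe sets of all, against 0 to 32 without it.

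These genes, none of which passed in either comparison with 8 or 7 arrays, changed sign when single arrays were left out (log2, either fit). For BA in wild type the ranges were -0.597 to 0.464 for STZ, -0.48 to 0.037 for PUB23, -0.207 to 0.033 for AT3G02840 and -0.293 to 1.195 for AT3G55840. Under BA between genotypes they were -0.204 to 0.856 for STZ, -0.68 to 0.534 for WRKY53, -0.193 to 0.094 for AT3G02840, -0.348 to 0.017 for AT5G56980 and -0.778 to 0.709 for AT3G55840. The counts of genes higher on replicate 2 were the same in each group with median centring, quantile normalization and the offset.

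Over all probe sets, the 8-array counts moved from 5 to 116 (quantile normalization), 12 (offset), 809 (array weights) and 0 (replicate block) for BA in wild type. For genotype under BA they moved from 32 to 139, 61, 1230 and 0 in the same order. Genotype under DMSO moved from 2 to 105 and the difference in BA effect from 0 to 18 with quantile normalization. With 7 arrays, BA in the mutant moved from 8 to 1 (quantile normalization), 49 (offset) and 0 (block), and genotype under DMSO from 961 to 628 (quantile normalization) and 436 (block). The block gave 251 in place of 516 for BA in wild type and 0 in place of 103 for the difference in BA effect. With mutant DMSO replicate 2 left out of the 8 arrays, BA in the mutant moved from 0 to 5488, the difference in BA effect from 0 to 4732 and genotype under DMSO from 2 to 5279.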
